A study of Mus musculus with 18 samples.

Results

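The genes described here are the fibroblast growth factor (FGF) ligands, their receptors and binding proteins, and the genes that FGF signalling is known to switch on to restrain itself. They were chosen by gene symbol: every probe of the array annotated to an Fgf, Fgfr, Fgfrl1, Fgfbp, Spry, Spred, Etv1, Etv4, Etv5 or Dusp6 symbol was taken. No measured level entered that rule, but the rule was set with earlier results of these data known. This gave 39 genes of 30869 symbols, on 65 of 45281 probes. The group held 18 secreted ligands, 4 intracellular FGF homologous factors, 5 receptors, 2 binding proteins, 3 Sprouty genes, 3 Spred genes, 3 ETS-family transcription factors and Dusp6. Where a gene had more than 1 probe, the probe with the brightest mean signal stands for it.

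The study followed mouse embryonic stem (ES) cells of the D3 line, from strain 129s2/SvPas, while they differentiated toward dopaminergic neurons. It compared control cells with cells in which the purine salvage enzyme HPRT was knocked down. Both cell types were transduced cultures under puromycin selection. The control cells expressed a short hairpin RNA (shRNA) against luciferase, and the knockdown cells expressed an shRNA that the methods describe as directed against the human HPRT gene. The labels name the vector a retrovirus and the methods a lentivirus. RNA came from ES cells, from spherical neural masses (SNM) and from cultures of the final neuronal stage, which gave 6 conditions with 3 Illumina MouseWG-6 v2 arrays each. The cultures themselves were exposed to FGF protein: the ES medium held 4 ng/ml of basic FGF, the product of Fgf2, together with leukemia inhibitory factor, and ES cells grew on mouse embryo fibroblast feeder cells. FGF8 protein and sonic hedgehog were among the reagents of the study; the step at which they were added is not given in the sources used here. RNA of replicate cultures was pooled within each condition before the arrays were hybridised. The SD and the tests below therefore cover the error between arrays of 1 pool, and not the spread between cultures.

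FGFs are secreted proteins that bind receptor tyrosine kinases on the cell surface with the help of heparan sulphate, and the bound receptors signal through the Ras-MAPK route to the kinase ERK. ERK activity raises the transcription of Dusp6, of the Sprouty and Spred genes and of Etv4 and Etv5, and Dusp6, the Sproutys and the Spreds in turn dampen the same route, so their mRNA is widely read as a record of FGF signalling. In ES cells, autocrine Fgf4 prepares the cells for lineage commitment. In the early brain, Fgf8, Fgf15 and Fgf17 are made by signalling centres such as the isthmus between midbrain and hindbrain, and later FGFs act on glial and muscle progenitors.

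Each array detected between 18827 and 22202 probes at a detection p-value under 0.05, and within a condition the SD of a typical probe (the median over probes) lay between 0.10 and 0.12 on the log2 scale. All levels below are background-corrected, quantile-normalized log2 signals. They are compared between conditions for 1 gene and never between genes, because each probe has its own brightness. The summed linear signals of the marker lists add several genes, so the brightest probes weigh most in them. These sums are compared between conditions only. The targeted gene, Hprt1, had means of 12.04 (control) and 7.95 (knockdown) in ES cells, of 11.20 and 9.44 in SNM, and of 11.05 and 6.60 in neuronal cultures. Relative to control, the Hprt1 signal of knockdown cells was 94.1% lower in ES cells, 70.5% lower in SNM and 95.4% lower in neuronal cultures.

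Of the 39 genes, 28 were detected on all 3 arrays of at least 1 condition. Among the ligands these were Fgf1, Fgf4, Fgf5, Fgf7, Fgf8, Fgf9, Fgf10, Fgf15, Fgf17, Fgf21 and Fgf22. The other 11 genes were Fgf2, Fgf3, Fgf6, Fgf11, Fgf14, Fgf16, Fgf18, Fgf20, Fgf23, Fgfr4 and Spred3, and 8 of them were detected on no array at all. The probe for Fgf2, whose protein was supplied in the ES medium, was among those never above background. Spry1 had no probe under that symbol.

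To show the regulatory sequence of genes that differed between knockdown and control cells, the 250 bases before the transcription start were read from RefSeq (assembly GRCm38.p6). ETS factors such as Etv4 and Etv5 recognise DNA around the letters GGAA. The runs CCGGAAG and AGGAAG were searched on both strands; both end in GGAAG, but no 1 position can match both. Of the 17 genes called in any comparison of knockdown and control cells (called is defined below), 12 were in the table, and 4 of these (33.3%) held a run. Of all 27025 genes in the table, 37.6% did; a run of letters is a description and not a binding site. The 4 windows lie at chr10:99262981-99263230 on the plus strand (Dusp6), chr5:43981800-43982049 on the minus strand (Fgfbp1), chr7:130266809-130267058 on the minus strand (Fgfr2) and chr5:108693979-108694228 on the plus strand (Fgfrl1). They are written 5' to 3' on the gene's strand, with the matched run, or its reverse complement, in capitals.
Dusp6: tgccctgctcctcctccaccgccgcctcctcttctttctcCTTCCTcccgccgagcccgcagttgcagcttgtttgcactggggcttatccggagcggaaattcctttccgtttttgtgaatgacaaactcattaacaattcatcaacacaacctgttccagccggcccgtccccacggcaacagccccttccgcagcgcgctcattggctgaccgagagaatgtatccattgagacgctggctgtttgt
Fgfbp1: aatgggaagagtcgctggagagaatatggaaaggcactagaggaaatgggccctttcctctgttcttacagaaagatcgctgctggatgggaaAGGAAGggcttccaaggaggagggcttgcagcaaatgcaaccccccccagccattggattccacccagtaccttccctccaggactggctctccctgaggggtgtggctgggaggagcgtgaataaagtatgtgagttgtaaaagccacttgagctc
Fgfr2: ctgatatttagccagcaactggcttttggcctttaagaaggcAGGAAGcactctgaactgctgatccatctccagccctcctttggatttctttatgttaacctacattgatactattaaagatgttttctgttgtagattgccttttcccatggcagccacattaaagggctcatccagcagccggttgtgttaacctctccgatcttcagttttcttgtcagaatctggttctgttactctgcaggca
Fgfrl1: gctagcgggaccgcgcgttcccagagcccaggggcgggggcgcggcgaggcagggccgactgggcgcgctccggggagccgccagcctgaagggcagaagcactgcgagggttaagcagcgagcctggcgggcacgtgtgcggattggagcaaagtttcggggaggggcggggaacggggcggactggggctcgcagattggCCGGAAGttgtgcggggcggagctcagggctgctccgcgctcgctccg

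Few FGF genes differed between knockdown and control ES cells. A gene was called different when limma gave an adjusted p-value under 0.05 and the change was at least 1.5-fold, and it was tested when 1 of the compared conditions, or both, had it above background on all 3 arrays. On that rule 1 of the 23 genes tested was called (4.35%), where 1.68% of all 18411 tested probes were (0.516% higher and 1.17% lower in knockdown cells). The gene was Fgf7, a fibroblast-derived ligand also known as keratinocyte growth factor. Its level was 5.60, 6.01 and 5.81 on the control arrays and 5.27, 4.68 and 4.49 on the knockdown arrays, of which 1 detected it. The groups did not overlap, and the log2 difference was -0.99 ± 0.17 (SE, limma adjusted p = 0.00137). In RNA from whole cultures, fewer cells of a type and less RNA per cell cannot be told apart. The 10 marker genes of fibroblasts and mesenchyme, which feeder cells also express, had a summed linear signal of 331 to 378 in control and 248 to 274 in knockdown ES cells, none of the 5 tested was called, and Col1a1, Lum, Pdgfrb and Postn were undetected in both. The part of feeder cells in the Fgf7 difference was not tested. The Fgf7 call was lost when the background was not subtracted, under either quantile or percentile scaling, and when the offset was 50.

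The feedback genes gave no call in ES cells. Dusp6, the phosphatase that removes the activating phosphates from ERK, had means of 11.45 ± 0.03 in control and 11.18 ± 0.05 in knockdown cells (SD, n = 3 arrays), a log2 difference of -0.27 ± 0.08 (SE). Spry2, Spry3 and Spry4 differed by -0.24, 0.27 and -0.19, and Etv1, Etv4 and Etv5 by -0.22, -0.16 and 0.06. Spred1 and Spred2 differed by -0.08 and 0.14, and Spred3 was undetected. The receptors gave no call either: Fgfr1, Fgfr2 and Fgfrl1 differed by -0.11, 0.14 and -0.17, and Fgfr3 and Fgfr4 were on no ES array. Fgf4, the autocrine ligand of ES cells, was 7.01 ± 0.04 and 7.14 ± 0.07 (SD), Fgf15 differed by 0.29 and was not called, and Fgf5, a ligand of cells leaving the ES state, was 5.08 ± 0.41 and 5.53 ± 0.30. Fgf5 passed the rule, as a rise, only when control array 1 was left out, which raised the count of called genes to 2. Over the tested genes the median log2 difference was -0.08, beside 0.01 over all probes. The arrays of knockdown and control cells did not overlap for 11 of 23 genes, beside 31.6% of all probes.

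**Figure D1:**
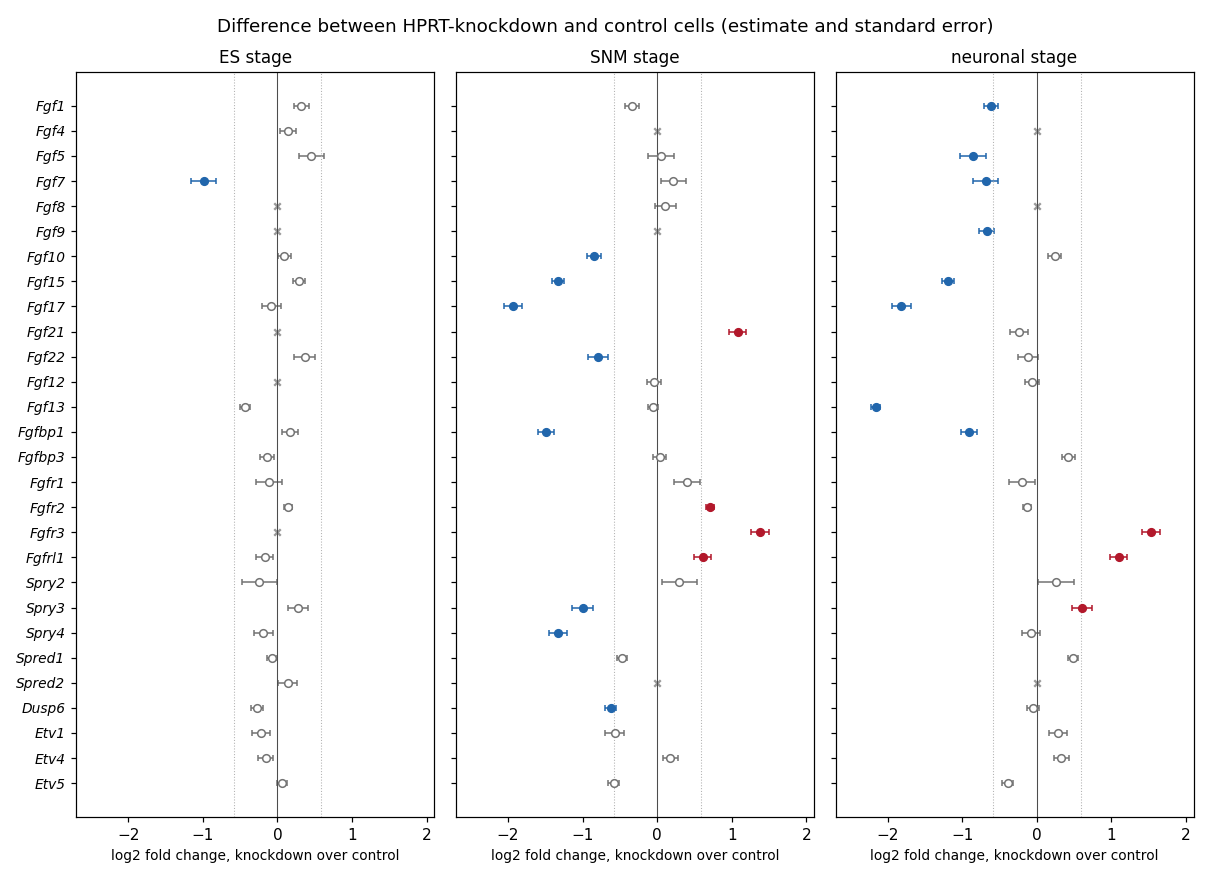
Log2 fold change of each FGF gene between HPRT-knockdown and control cells at the ES, SNM and neuronal stage, with the limma standard error as a bar. Filled points are called genes, red where higher and blue where lower in knockdown cells, open points are tested genes that were not called, and crosses are genes not tested at that stage. Dotted lines mark a 1.5-fold change. The ES panel has 1 filled point, the SNM panel 12 and the neuronal panel 11.

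At the SNM stage 12 of 25 tested genes were called (48%), beside 19.9% of all 20765 tested probes. Of these, 8 were lower in knockdown cells (8.9% of all probes were called lower) and 4 were higher (11% of all probes). The lower genes were 4 secreted ligands, a binding protein, 2 Sprouty genes and Dusp6, and the higher genes were 3 receptors and Fgf21. The median log2 difference of the tested genes was -0.05, beside -0.04 for all probes, with called genes on both sides. Knockdown and control arrays did not overlap for 16 of the 25 genes, beside 56.1% of all probes.

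Among the ligands called at the SNM stage, Fgf17 had the largest fold change. This ligand of the isthmus and frontal neural tube measured 7.48, 7.21 and 7.02 in control and 5.53, 5.34 and 5.04 in knockdown cells. The lowest control array was well above the highest knockdown array, and the log2 difference was -1.93 ± 0.13 (SE, limma adjusted p = 3.93e-09), or 3.82-fold. The brightest of the Fgf17 probes carried this result; the other was too dim to be tested and differed by -0.15. Fgf15, the mouse counterpart of human FGF19 and a ligand of the dorsal midbrain and hindbrain, measured 8.71, 8.52 and 8.60 in control and 7.38, 7.23 and 7.23 in knockdown cells. The arrays again did not overlap, and the level was 2.52-fold lower in knockdown cells (log2 difference -1.33 ± 0.08, SE; limma adjusted p = 2.67e-09). Fgf8, the ligand most closely tied to the isthmus, was not called: its means were 5.88 ± 0.04 and 5.99 ± 0.15 (SD).

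Fgf10, a mesenchymal ligand that is also made in the hypothalamus, was lower, with a log2 difference of -0.85 ± 0.09 (SE), and the second of its probes gave -0.85 as well, while the last was too dim to be tested, and with all probes averaged the call was lost (-0.56). Fgf22, a ligand that organises synapses, was lower as well, at -0.79 ± 0.14; this call was lost when the background was not subtracted, with an offset of 50 and when the probes of a symbol were averaged. Fgf21, an endocrine ligand induced by metabolic stress, moved the other way. Its level was 5.49, 5.49 and 5.33 in control and 6.60, 6.44 and 6.51 in knockdown cells. No array of one group reached the other, and the difference was 1.08 ± 0.12 (log2, SE; limma adjusted p = 1.66e-06). The Fgf21 and Fgf10 calls were lost under both normalizations without background correction. Fgf1, Fgf5 and Fgf7 were tested and not called, with log2 differences of -0.34, 0.05 and 0.21.

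Fgfbp1, a secreted carrier that releases FGFs from the extracellular matrix, measured 6.42, 6.60 and 6.24 in control SNM and 5.08, 4.96 and 4.75 in knockdown SNM. Every knockdown array lay below every control array, and the log2 difference was -1.49 ± 0.11 (SE; limma adjusted p = 1.45e-08), or 2.81-fold. The related Fgfbp3 had means of 10.61 ± 0.06 and 10.64 ± 0.10 (SD), a difference within the spread between arrays.

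**Figure D2:**
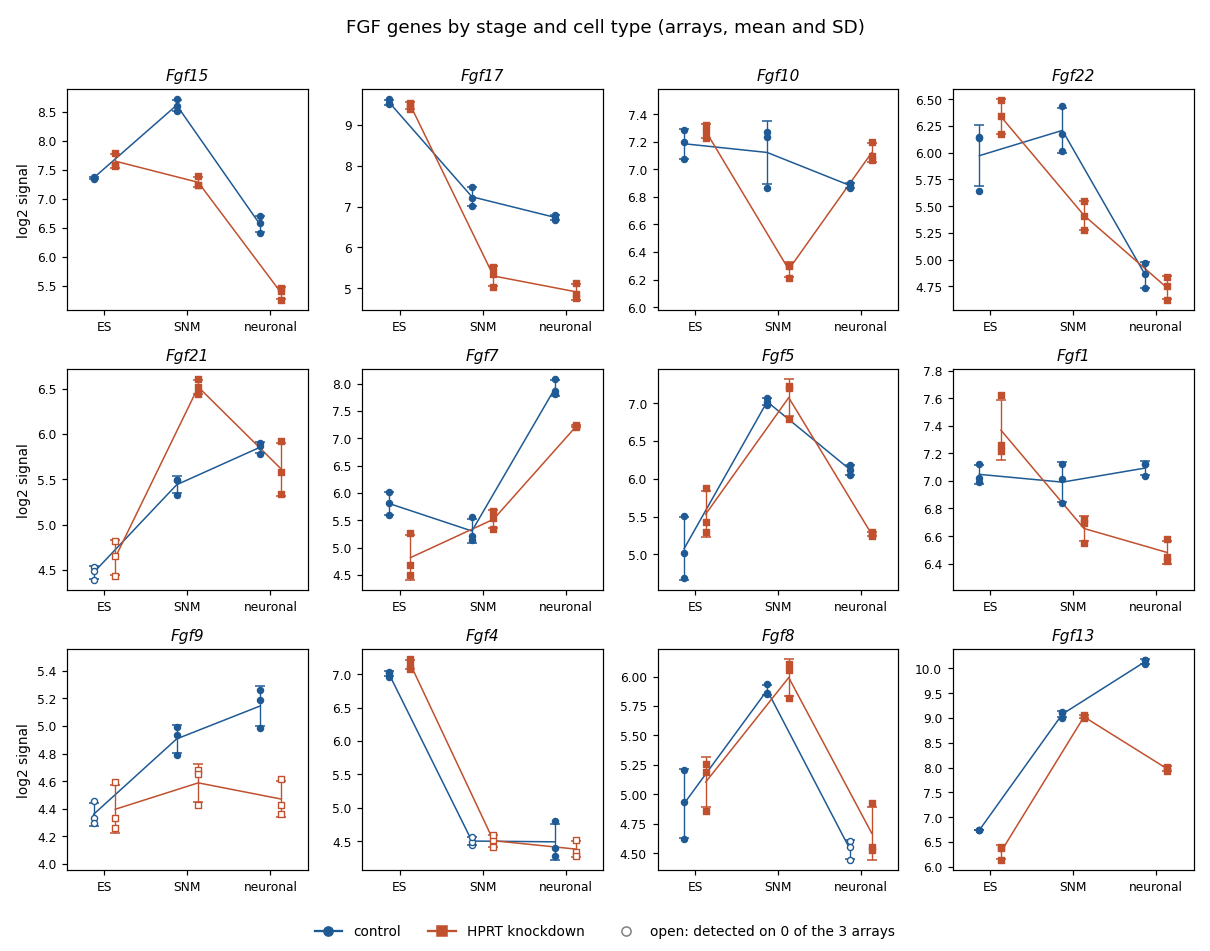
Normalized log2 signal of 12 FGF genes at the ES, SNM and neuronal stage in control cells (blue circles) and HPRT-knockdown cells (red squares). Each point is 1 array, lines join the means of the 3 arrays and bars are SD; open symbols mark conditions where no array detected the gene, and each panel has its own scale. Between knockdown and control cells, Fgf15 and Fgf17 are called at the SNM and the neuronal stage, and Fgf21, Fgf10 and Fgf22 in SNM. Fgf1, Fgf5, Fgf7, Fgf9 and Fgf13 are called in neuronal cultures, and Fgf7 in ES cells too.

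Of the 4 receptors tested at the SNM stage, 3 were called, each of them higher in knockdown cells, beside 11% of all probes called higher. Fgfr3, which in the neural tube marks progenitors that give rise to astrocytes, measured 5.03, 4.46 and 4.95 in control and 6.29, 6.30 and 6.01 in knockdown SNM. The groups did not overlap, though only 2 of the 3 control arrays detected the gene, and the log2 difference was 1.38 ± 0.12 (SE; limma adjusted p = 1.16e-07). The second Fgfr3 probe was too dim to be tested and differed by 0.11. Fgfr2, the main receptor of the Fgf7 and Fgf10 subfamily in its epithelial form, had means of 9.76 ± 0.09 in control and 10.46 ± 0.03 in knockdown cells (SD) and was 1.63-fold higher. A second Fgfr2 probe differed by 0.44, short of the 1.5-fold bound. The Fgfr2 call was lost when its probes were averaged, which gave a log2 difference of 0.26, and under 75th percentile scaling without background correction (0.55).

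Fgfrl1, a receptor-like protein that binds FGFs but has no kinase domain, measured 7.18, 7.09 and 6.94 in control and 7.82, 7.85 and 7.37 in knockdown SNM. The lowest knockdown array was only slightly above the highest control array. The log2 difference of 0.61 ± 0.11 (SE) was just past the 1.5-fold bound, and the call was lost without control array 3, knockdown array 1 or knockdown array 2, under both normalizations without background correction, with an offset of 50 and by the methods' t-test after Benjamini-Hochberg. Fgfr1, the receptor most widely present in the early brain, had means of 5.54 ± 0.16 and 5.94 ± 0.40 (SD) and was not called (log2 difference 0.40 ± 0.17, SE); it passed without knockdown array 3.

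Of the feedback genes, Spry4, Spry3 and Dusp6 were called at the SNM stage, each lower in knockdown cells. Spry4, an inhibitor of receptor tyrosine kinase signalling upstream of ERK, measured 6.61, 6.72 and 6.71 in control and 5.34, 5.51 and 5.20 in knockdown cells. The groups were far apart, and the level was 2.52-fold lower in knockdown cells (log2 difference -1.33 ± 0.12, SE; limma adjusted p = 2.17e-07). Spry3, a less studied member of the same family, measured 7.13, 7.001 and 7.18 in control and 5.97, 6.27 and 6.07 in knockdown cells. These did not overlap, and the log2 difference was -1.001 ± 0.14 (SE; limma adjusted p = 1.54e-05). Spry2 varied widely between arrays, with means of 5.46 ± 0.41 and 5.76 ± 0.08 (SD), and was not called.

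Dusp6 measured 11.72, 11.76 and 11.92 in control SNM and 10.99, 11.31 and 11.22 in knockdown SNM, without overlap. The log2 difference of -0.63 ± 0.08 (SE; limma adjusted p = 6.04e-06) lay close to the 1.5-fold bound and fell short of it without control array 3 or without knockdown array 1. The other Dusp6 probes were also called, at -0.91 and -0.64. The ETS genes stood at the edge of the rule: Etv5 differed by -0.58 ± 0.07 (limma adjusted p = 3.02e-06) and Etv1 by -0.57 ± 0.12 (limma adjusted p = 0.00104), both just short of 1.5-fold. Etv5 passed when any 1 of 4 of the 6 arrays was left out and Etv1 when any 1 of 3 was, and the other Etv1 probes were called at -0.71 and -0.77. Etv4 differed by 0.18 ± 0.10 and was not called. Spred1, an inhibitor of Raf activation, differed by -0.47 ± 0.07, less than 1.5-fold. The main Spred2 probe was detected on 2 of 3 control and 1 of 3 knockdown arrays and was not tested, while another Spred2 probe, detected on all 6, differed by -0.16 and was not called.

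Markers of brain regions and of cell types differed between knockdown and control SNM too. The counts below stand beside 19.9% of all probes called at this stage, 11% higher and 8.9% lower. The 8 midbrain and isthmus genes had a summed linear signal of 4287 to 4791 in control and 1787 to 2204 in knockdown SNM; 4 of the 5 tested were called lower, and Pax2 and Pax5 were undetected in both. The 8 genes of the ventral forebrain and hypothalamus went from 542 to 557 up to 2713 to 2856, with 4 of 5 tested called higher and 1 lower, and Sim1 undetected in both. The 9 astrocyte and radial glia genes were at 15281 to 16848 and 22556 to 23779, with 4 called higher and none lower. Of the skeletal muscle genes 8 of 11 tested were called higher, with a summed signal of 2729 to 2818 in control and 4872 to 5211 in knockdown SNM, and Ckm was undetected in both. The oligodendrocyte lineage genes were at 15135 to 15560 and 11055 to 11867, with 5 lower and 1 higher of 11. Called genes numbered 3 higher and 2 lower of 6 dopaminergic genes, 1 higher and 2 lower of 7 neuron genes, 4 lower of 9 genes of pluripotent ES cells, and 2 higher of 10 fibroblast and mesenchyme genes. The last list, at 20% called, was near the share of all probes. The part of a different mixture of regions or cell types in the FGF differences was not tested.

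**Figure D3:**
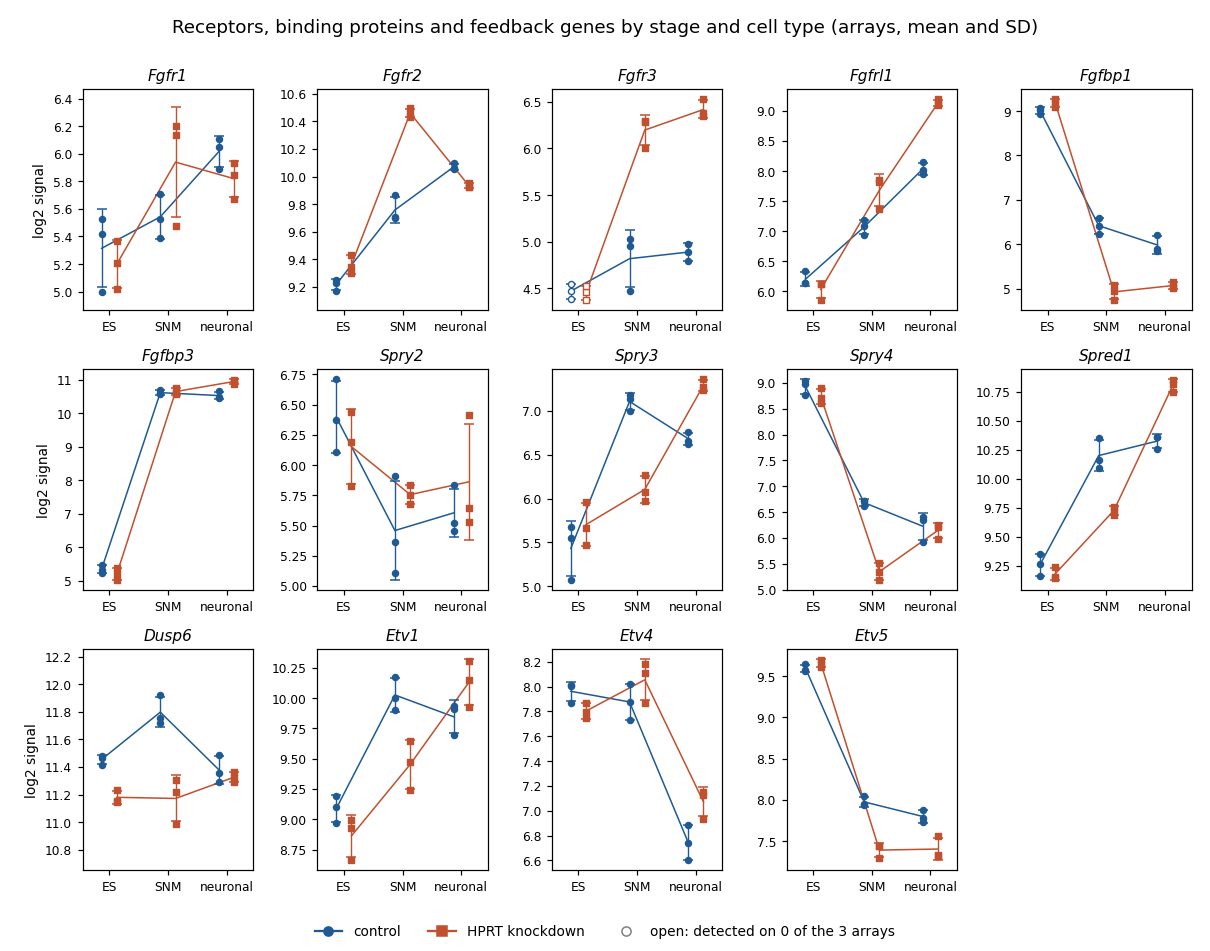
Normalized log2 signal of the detected receptors, the binding proteins, Spry2, Spry3, Spry4, Spred1, Dusp6 and the Etv genes, drawn as in the plot of the ligands: points are arrays, lines join means, bars are SD, and control cells are blue circles and knockdown cells red squares. Fgfr3 has means of 4.82 and 4.89 in control SNM and neuronal cells and of 6.20 and 6.42 in knockdown SNM and neuronal cells. Spry3, Spry4 and Dusp6 are called lower in knockdown SNM.

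At the neuronal stage 11 of 25 tested genes were called (44%), beside 27.4% of all 20893 tested probes. Here 8 genes were lower in knockdown cells (13.5% of all probes were) and 3 were higher (13.9% of all probes). The lower genes were 6 secreted ligands, the intracellular factor Fgf13 and Fgfbp1; the higher genes were Fgfr3, Fgfrl1 and Spry3. The median log2 difference over the tested genes was -0.12, beside 0.01 over all probes, and arrays did not overlap for 17 of 25 genes, beside 62.8% of probes.

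Fgf13 gave the largest difference of the FGF genes at this stage. It is not secreted; it binds voltage-gated sodium channels and microtubules in neurons and is also present in heart and muscle. It measured 10.16, 10.17 and 10.09 in control and 7.99, 8.02 and 7.93 in knockdown neuronal cultures. The gap between the groups was many times the spread within either, with a log2 difference of -2.16 ± 0.06 (SE; limma adjusted p = 6.13e-14), or 4.48-fold. A second Fgf13 probe was called at -1.61, and the last was too dim to be tested. At the SNM stage the same gene had shown means of 9.08 ± 0.07 and 9.02 ± 0.03 (SD).

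Fgf17 and Fgf15 kept their direction from the SNM stage. Fgf17 measured 6.80, 6.73 and 6.67 in control and 4.75, 5.13 and 4.86 in knockdown neuronal cultures, where 2 of 3 arrays detected it. The groups did not overlap (log2 difference -1.82 ± 0.13, SE; limma adjusted p = 3.32e-09), and the other Fgf17 probe, too dim to be tested, gave -0.20. Fgf15 measured 6.58, 6.69 and 6.41 in control and 5.25, 5.41 and 5.45 in knockdown cultures. Again no array of one group reached the other, and the level was 2.28-fold lower in knockdown cells (log2 difference -1.19 ± 0.08, SE; limma adjusted p = 4.09e-09). The knockdown effect on these ligands was tested for a difference between the SNM and neuronal stages and gave 0.11 ± 0.18 for Fgf17 and 0.14 ± 0.12 for Fgf15 (log2, SE), neither of them called.

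The other ligands that were lower in knockdown neuronal cultures changed less. The log2 difference was -0.85 ± 0.17 for Fgf5, -0.69 ± 0.17 for Fgf7 and -0.61 ± 0.10 for Fgf1, a ligand that binds every FGF receptor (SE). Fgf9, a ligand made by neurons and other cells, was detected on all 3 control arrays and on no knockdown array, so it was at least 1.32-fold lower. That bound lies under the 1.5-fold rule, and the call rests on a fitted level below detection in knockdown cells. The carrier Fgfbp1 had a difference of -0.91 ± 0.11. These 5 calls were lost under both normalizations without background correction and with an offset of 50, and that of Fgf1 also without knockdown array 1 and when its probes were averaged. Fgf8 and Fgf4 were not tested at this stage, since no condition had them on all 3 arrays.

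Fgfr3 was higher in knockdown cells at this stage too. It measured 4.79, 4.89 and 4.98 in control and 6.38, 6.34 and 6.53 in knockdown cultures. Detected on every array, the groups were clearly apart, with a log2 difference of 1.53 ± 0.12 (SE; limma adjusted p = 1.67e-08), or 2.89-fold. The second Fgfr3 probe, too dim to be tested, gave 0.10. Fgfrl1 measured 8.14, 7.95 and 8.01 in control and 9.19, 9.10 and 9.11 in knockdown cultures. Every knockdown array lay above every control array, and the difference was 1.10 ± 0.11 (log2, SE; limma adjusted p = 4.87e-07). Fgfr2, higher at the SNM stage, differed here by -0.14 ± 0.05, and Fgfr1 by -0.20 ± 0.17, neither called.

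Of the feedback genes, Spry3 was the 1 called at the neuronal stage. It was higher in knockdown cells by 0.61 ± 0.14 (log2, SE; limma adjusted p = 0.00121), where it had been lower at the SNM stage, but this call was lost without control array 3 or without knockdown array 3, under both normalizations without background correction, with no scaling between arrays and with an offset of 50. The difference of its knockdown effect between these stages (1.61) was called under each alternative. Spry4 (-0.08 ± 0.12), Spry2 (0.26 ± 0.24) and Dusp6 (-0.05 ± 0.08) were not called. Spred1 differed by 0.48 ± 0.07, Etv4 by 0.33 ± 0.10 and Etv5 by -0.39 ± 0.07; each had a limma adjusted p under the threshold and a change under 1.5-fold. Etv1 differed by 0.28 ± 0.12.

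The neuronal cultures differed in cell type markers as well, where 27.4% of all probes were called, 13.9% higher and 13.5% lower. The 12 skeletal muscle genes had a summed linear signal of 104993 to 106437 in control and 318 to 522 in knockdown cultures; 11 were called lower, and Ckm, Myod1, Myog and Tnnt3 were undetected in knockdown cells. The 12 genes of the oligodendrocyte lineage went from 5187 to 5598 up to 68732 to 71579, with 11 called higher. The neuron genes were at 7651 to 8115 and 1658 to 1698, with 5 of 7 tested called lower. Nefl and Snap25 were undetected in both, and Tubb3 in knockdown cultures only. The fibroblast and mesenchyme genes were at 22216 to 25383 and 11687 to 14949, with 7 of 10 lower. The dopaminergic genes had a summed signal of 1651 to 1887 in control and 3468 to 3613 in knockdown cultures; Ddc (1.71) and Lmx1a (1.10) of the 6 tested were called higher and none lower, Lmx1b and Pitx3 were undetected in both, Slc6a3 in control and Th in knockdown cultures. Of the other lists, 6 genes were higher and 1 lower of 9 for astrocytes and radial glia, 6 lower and 1 higher of 9 for pluripotent ES cells, 3 lower of 5 for midbrain and isthmus, and 3 higher and 1 lower of 5 for ventral forebrain and hypothalamus. The part of these cell types in the differences of Fgf13, Fgf7, Fgf9, Fgfr3 and the other genes was not tested.

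The stages were also compared within each cell type. From the ES to the SNM stage, 17 of 26 tested genes were called in control cells (65.4%, beside 49.1% of all probes), 11 higher and 6 lower (23.7% and 25.4% of all probes). In knockdown cells 20 of 27 were called (74.1%, beside 57.3%), 12 higher and 8 lower (26.4% and 30.9%). Fgf4 was on all ES arrays and on no SNM array, which made it at least 4.73-fold lower in control and at least 5.52-fold lower in knockdown cells. Fgfbp3, the second FGF-binding protein on the array, rose the most, by 5.26 ± 0.09 and 5.43 ± 0.09 (log2, SE), and Fgf13 rose by 2.34 and 2.72. Fgf12, a neuronal relative of Fgf13, was undetected in ES cells and at least 2.85-fold higher in control and at least 2.65-fold higher in knockdown SNM. Fgf5 rose by 1.94 in control and 1.54 in knockdown cells, and Fgf8 by 0.96 and 0.89, with 2 of 3 ES arrays of each cell type detecting Fgf8. In both cell types the Fgf8 call was lost under both normalizations without background correction, with an offset of 50 and by the 2-fold rule.

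Several genes of the ES state fell in both cell types, and further in knockdown cells. Control and knockdown cells gave log2 changes of -2.31 and -4.17 for Fgf17, -2.60 and -4.25 for Fgfbp1, -2.24 and -3.39 for Spry4, and -1.62 and -2.27 for Etv5. The test of the difference between cell types, which is that of the knockdown effect between the stages, called each of these: -1.85 for Fgf17, -1.66 for Fgfbp1, -1.14 for Spry4 and -0.65 for Etv5. The Spry4 and Etv5 differences lost their call under both normalizations without background correction, and Etv5 also with an offset of 50. Fgf15 rose by 1.25 in control cells and was called in no direction in knockdown cells (-0.37). Spry3 was likewise called only in control cells, at 1.67 against 0.40, and the differences between cell types of -1.62 for Fgf15 and -1.27 for Spry3 were called too. Fgfr3 was undetected in ES cells of both types; it was at least 2.40-fold higher in knockdown SNM, and it was not tested in control cells. In all, 13 of 27 genes had a called difference between the cell types (48.1%), beside 21.3% of all probes: 4 moved up (11.7% of all probes) and 9 down (9.61%).

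**Figure D4:**
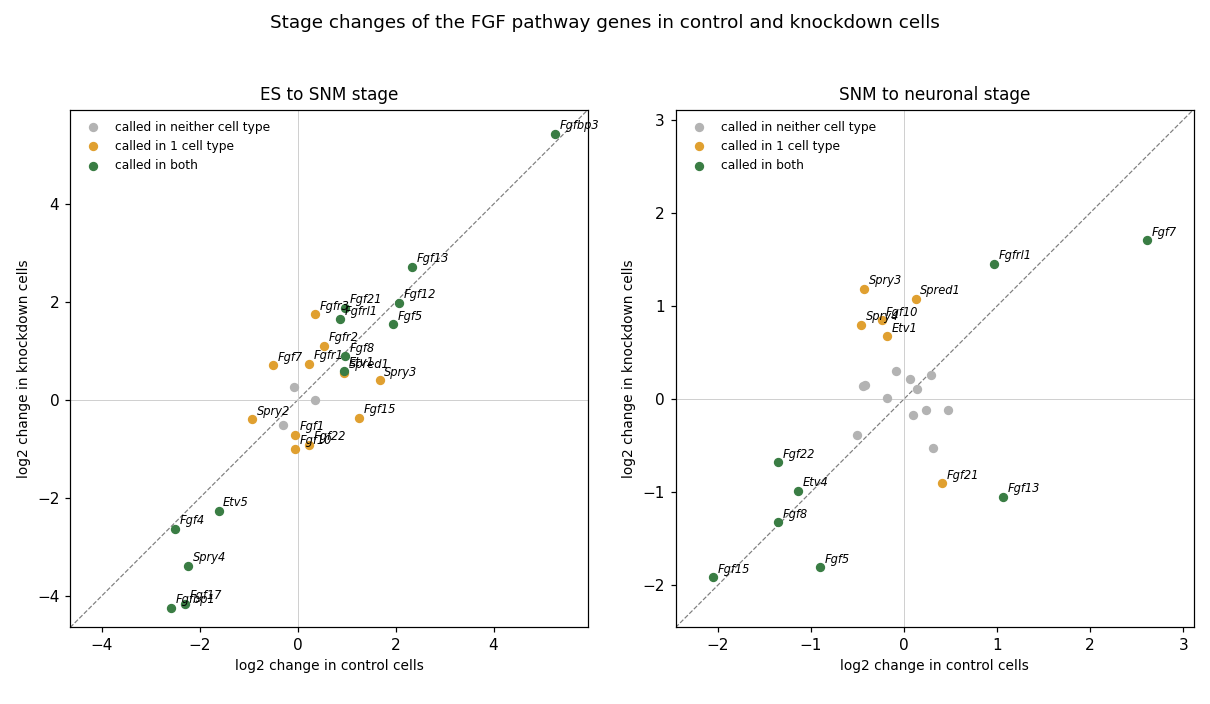
Log2 change of each detected FGF gene from the ES to the SNM stage (left) and from the SNM to the neuronal stage (right), in control cells on the horizontal axis and knockdown cells on the vertical axis. Points on the dashed line changed equally; green genes were called in both cell types, orange genes in 1 and grey genes in neither, and fitted changes of genes undetected at a stage are lower bounds in the text. Fgfbp1, Fgf17 and Spry4 lie below the line on the left, and Fgf13 lies far below it on the right.

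From the SNM to the neuronal stage, 8 of 26 genes were called in control cells (30.8%, beside 29.4% of all probes), 3 higher and 5 lower (14.3% and 15.1% of all probes). In knockdown cells 14 of 25 were called (56%, beside 28.6%), 7 higher and 7 lower (13.8% and 14.8%). Control and knockdown cells gave log2 changes of -2.05 and -1.91 for Fgf15 and 2.61 and 1.71 for Fgf7. Fgf8 was at least 2.26-fold lower in control neuronal cultures, where no array detected it, and changed by -1.32 in knockdown cultures, where 1 array did. Etv4 fell in both (-1.13 and -0.98), as did Fgf22 (-1.35 and -0.68) and Fgf5 (-0.90 and -1.81). Fgf13 went in opposite directions, at 1.06 in control cells and -1.05 in knockdown cells. Called only in knockdown cells were rises of Spry3 (1.18), Spry4 (0.80), Spred1 (1.08), Etv1 (0.68) and Fgf10 (0.85) and the fall of Fgf21 (-0.90), and for each of these 6 genes the knockdown effect differed between the stages by the same rule. The Etv1 rise was lost without knockdown SNM array 1. The knockdown-cell calls of Spry4, Fgf10, Fgf21 and Fgf22 were lost under both normalizations without background correction. Those of Spry4 and Fgf22 were also lost with an offset of 50, and those of Fgf10, Fgf13 and Fgf22 when probes were averaged. The knockdown-cell call of Fgf8 was lost under quantile normalization without background correction. In control cells the calls of Fgf5, Fgf8 and Fgf22 were lost under that setting, and that of Fgf5 also under 75th percentile scaling. The knockdown effect differed between the stages for 11 of 26 genes (42.3%), beside 28.6% of all probes: 6 moved up (13.7%) and 5 down (14.8%).

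The rest of the route was read from 4 lists. Of 20 adaptors and kinases between the receptor and ERK, none of 17 tested was called in knockdown ES cells (1.68% of all probes were) and none of 18 in knockdown SNM (19.9% of all probes). At the neuronal stage 2 of 17 were called (11.8%, beside 27.4% of all probes), both higher: Mapk3, which encodes ERK1, by 1.31 and the docking protein Gab1 by 0.81 (log2). Of 22 heparan sulphate core proteins and enzymes, none of 17 was called at the ES stage, 6 of 19 were higher in SNM (31.6%, beside 11% of all probes called higher), and 3 of 18 were higher and 3 lower in neuronal cultures (33.3% called, near the 27.4% of all probes). The largest differences in SNM were those of the glypican Gpc3 (1.71), the sulphatase Sulf1 (1.04) and the syndecan Sdc4 (0.94). At the neuronal stage they were those of the sulphotransferase Hs6st2 (-2.09), the glypican Gpc2 (-1.19) and the sulphatase Sulf2 (0.98). Of 7 co-receptors and membrane modulators with a probe, 0 of 5 tested, 1 of 4 and 3 of 6 were called at the 3 stages. These are 0%, 25% and 50%, beside 1.68%, 19.9% and 27.4% of all probes, so the SNM share is near that of all probes. Among them Il17rd, an inhibitor of FGF receptors that is itself a target of the route, was lower at both later stages, with log2 differences of -0.70 in SNM and -1.45 in neuronal cultures. Klb, the co-receptor of Fgf15 and Fgf21, was detected on all knockdown and on no control neuronal array, at least 1.94-fold higher, and Flrt1 was higher by 0.82 there.

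Of 11 other ERK phosphatases and immediate early genes with a probe, 1 of 10 was called at the ES stage, where the transcription factor gene Myc was lower (-0.64), and 1 of 9 at the SNM stage, where Egr2, which also marks hindbrain segments and myelinating Schwann cells, was lower (-1.41). These are 10% and 11.1%, beside 1.68% and 19.9% of all probes. At the neuronal stage 5 of 9 were higher and 2 lower (77.8% called, beside 27.4%). The largest of these were Fos (3.59), the ERK phosphatase gene Dusp4 (-1.67) and Dusp7 (1.36), so phosphatases of ERK lay on both sides. The medians of the 4 lists at the SNM stage, -0.03 for adaptors and kinases, 0.20 for heparan sulphate genes, 0.06 for co-receptors and -0.30 for phosphatases and immediate early genes, stood beside -0.04 for all probes.

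Every p-value above is from 1 limma model over all 18 arrays. An exact permutation test of 3 arrays against 3 cannot go below 0.1, and none was used.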

How the data were processed

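The authors deposited, for 18 Illumina MouseWG-6 v2 arrays, the mean bead signal intensity of each probe with no background subtraction and no normalization, and its detection p-value. A second deposited table supplied the gene symbols; its 72 per-sample columns could not be matched to labels and were not used. Conditions were taken from the sample labels. The depth of a bead array is not a count, and 3 arrays per condition limit the precision.

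Signals were corrected, scaled and log2-transformed with limma 3.58.1 (R 4.3.3) by its neqc method (background from the detection p-values, offset 16, quantile normalization). One limma model with 6 conditions was fitted (lmFit, eBayes; two-sided) and p-values were adjusted with Benjamini-Hochberg over every tested probe. Detected means a detection p-value under 0.05. For a gene that no array of 1 condition detected, the fold is a bound: its level there was set to the lowest signal detected on each array, or to its own where that was higher. The scripts were tested on simulated data.

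The genes, lists and rules were chosen with earlier results of these data known, so no list is independent support. Values of each array are given for genes called at 2-fold or more between cell types; receptors, feedback genes, every gene called between cell types, and Fgf2, Fgf4, Fgf5, Fgf8 and Fgf15 are named with values; of each pathway list the 3 largest called differences are named. With windows on chromosome 18 left out, the RefSeq windows held 29 of the 39 genes. Probe sequences were not used here. Arrays were numbered by their titles. The deviations of arrays of equal number in the 2 cell types correlated at 0.49, 0.11 and 0.49 in SNM, at 0.61, 0.09 and 0.32 in neuronal cultures and at -0.09, 0.03 and 0.10 in ES cells; every pair passed 0.1 in SNM alone, and the number as a block was 1 of the alternatives. The methods' t-test and filter, other normalizations, offsets and thresholds, averaging of probes, and leaving out each array were the others.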

Additional observations from a re-analysis of the deposited data

Results flagged for a closer look

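The difference between knockdown and control cells was itself compared between stages, and 24 such differences passed the rule of a limma adjusted p under 0.05 and 1.5-fold. Values are log2 differences of the knockdown effect. They share the SNM arrays, so the lists for the earlier and later pair of stages are not independent. From the ES to the SNM stage the effect moved down for the ligands Fgf17 (-1.85), Fgf15 (-1.62), Fgf22 (-1.16), Fgf10 (-0.94) and Fgf1 (-0.66), for the carrier Fgfbp1 (-1.66), and for the feedback genes Spry3 (-1.27), Spry4 (-1.14) and Etv5 (-0.65). It moved up for the receptors Fgfr3 (1.40) and Fgfrl1 (0.78) and for Fgf7 (1.21) and Fgf21 (0.91).

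From the SNM to the neuronal stage the effect moved up for the feedback genes Spry3 (1.61), Spry4 (1.26), Spred1 (0.95) and Etv1 (0.86) and for the ligands Fgf10 (1.09) and Fgf22 (0.68). It moved down for Fgf13 (-2.11), Fgf21 (-1.32), Fgf5 (-0.91), Fgf7 (-0.90) and Fgfr2 (-0.84). Fgf7 was detected on 1 of 3 knockdown ES arrays, Fgf22 on 2 of 3 knockdown neuronal arrays, and Fgfr3 and Fgf21 on no ES array, so the differences that use those conditions compare levels at or near background. The change of Fgf22 between the later stages lost its call without control SNM array 1, and that of Fgf1 between the earlier stages without knockdown ES array 1. Between the earlier stages, the differences of Fgf1, Fgf7, Fgf21, Fgf22, Fgfrl1, Spry4 and Etv5 were lost under both normalizations without background correction. Those of Fgf1 and Etv5 were also lost with an offset of 50, and those of Fgf1 and Fgf10 when probes were averaged. Between the later stages, Fgf5 and Fgf22 lost their call under both these normalizations and with an offset of 50, and Fgf22 and Fgfr2 when probes were averaged. Groups of 3 arrays were too small for a search for single outlying arrays.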

How the results depend on the processing

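Of 24 calls between knockdown and control cells, 11 stood under every alternative and 13 were lost under at least 1; none changed direction. Of 59 calls between stages 34 stood, and of 24 differences of the knockdown effect 10. The count of called genes at the ES stage went from 1 to 0 when arrays were quantile-normalized or scaled to their 75th percentile with no background subtracted, with an offset of 50, by the 2-fold rule, and by the methods' t-test after Benjamini-Hochberg. At the neuronal stage it went from 11 to 5 under the first 4 of these. The 2-fold rule left 7 of 12 calls at the SNM stage, 11 of 17 and 8 of 14 for the stage changes from ES to SNM in control and from SNM to neuronal cultures in knockdown cells, and 8 of 13 and 5 of 11 for the differences of the knockdown effect. Quantile normalization without background correction left 5 of 8 and 9 of 14 calls of the later stage change in control and knockdown cells and 6 of 13 for the earlier difference, where the 75th percentile also left 6. Between cell types at the SNM stage, quantile normalization left 8 of 12 calls, the 75th percentile left 7 and gained Etv1, and an offset of 50 left 10. From ES to SNM, both normalizations without background correction left 13 of 17 calls in control and 14 of 20 in knockdown cells. An offset of 50 left 15 and 14 of these, and the 2-fold rule also left 14 in knockdown cells. The cause was not tested. The methods' t-test without adjustment called 1, 12 and 11 genes between cell types at the 3 stages, and 0, 11 and 11 after Benjamini-Hochberg. Averaging all probes of Etv1 turned its change from ES to SNM in knockdown cells from 0.59 to -0.19.

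With 1 array left out, between 1 and 2 genes were called at the ES stage, 11 to 14 at the SNM stage and 10 to 11 at the neuronal stage; the stage changes gave 17 to 19, 19 to 20, 8 to 9 and 13 to 14, and the differences of the knockdown effect 12 to 14 and 11 to 13. With the array number as a block for pairing, the counts between cell types were 1, 12 and 11, and the difference between the later stages gained Fgfr1, 12 calls against 11; no other call changed. Genes near background, such as Fgf9, Fgf21 and Fgfr3, have compressed fold changes, and Fgf4 and Fgf8 could not be compared between cell types at every stage.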
